A study of Mus musculus with 47 samples.

Results

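The basal and luminal epithelium of the mouse mammary gland was compared at day 2 of involution (Id2) in 6 RNA-seq libraries, 3 basal and 3 luminal, out of the 47 of the series, 46 of which had values here. They were taken by their labels, as replicates 2, 4 and 6 of each cell type, and the basal and luminal library of a number were paired because they came from the same sort. The mice were FVB/N females that had been mated at 8 weeks of age. They nursed for 10 days, were force weaned and were killed 2 days later, and the glands of 4 mice were pooled for a sort. No genetic change or drug is named for them. Luminal cells were gated as lineage-negative, CD24+ and CD29 low, and basal cells as lineage-negative, CD24+ and CD29 high, where lineage covers CD11b, CD45, Ly-6G/Ly-6C, Ter-119, CD31 and CD140a. The CD140a antibody is listed in the methods as one against the human antigen, so whether it removed mouse fibroblasts is not known. The gates were moved slightly from sort to sort. In lactation and involution they left out a further population of cells that the authors did not identify. The 40 libraries of the other 7 time points (19 basal and 21 luminal, from virgin, pregnant, lactating and late-involution mice) served to show where Id2 differed. Luminal replicates 2, 4 and 6 held 8578999, 7756125 and 7966921 reads on genes, and the basal replicates held 8485798, 11204244 and 7382662. Values are the normalized read counts of the deposited table in CPM, in which the reads of a gene are scaled to the size of the library. A level of 3 reads, taken as the smallest measurable, was worth 0.291 to 0.610 CPM in these libraries, and it covers counting error only. All 6 libraries shared a sequencing lane and an RNA amplification batch, so neither separates the cell types.

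The mammary duct and alveolus have 2 epithelial layers. Luminal cells face the lumen and make milk, and basal cells, most of them myoepithelial, lie on the basement membrane and contract to eject the milk. When suckling stops, the milk left in the lumen and the loss of pituitary hormones bring on involution. Leukemia inhibitory factor and STAT3 signaling, lysosomal leakage and an acute-phase response mark its first, reversible phase, in which luminal cells die and engulf their neighbours. Proteases then break down the basement membrane, the alveoli collapse and fat cells refill the gland.

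Some of the genes by which basal cells are usually known, *Trp63* and *Krt14* among them, were not above luminal levels in the basal libraries of replicates 2 and 6, while others stayed higher in all 3 pairs. *Trp63* (ENSMUSG00000022510), the transcription factor that maintains basal identity, was at 9.99, 26.6 and 3.39 CPM in the basal and 20.4, 2.25 and 16.9 CPM in the luminal libraries of replicates 2, 4 and 6, the order used for every gene here. In the 19 basal libraries of the other time points *Trp63* ran from 457 to 999 CPM. Basal and luminal libraries of Id2 therefore overlapped, and *Trp63* was not called (log2 fold change 0.03 ± 0.64, adjusted p = 0.98, limma).

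*Krt5* (ENSMUSG00000061527), the basal keratin that pairs with *Krt14*, was at 4.68, 156 and 6.95 CPM in basal and 3.56, 4.12 and 1.63 CPM in luminal libraries, against 779 to 3849 CPM in the other basal libraries. It was called higher (log2 fold change 2.29 ± 0.71, adjusted p = 0.0092), but replicate 4 alone was far above its luminal partner. Without replicate 4 the log2 fold change was 0.96 (adjusted p = 0.30), without replicate 6 the adjusted p was 0.016, and with the pairing ignored it was 0.023. *Krt14* (ENSMUSG00000045545) was at 2.65, 49.03 and 3.07 CPM in basal and 5.73, 8.23 and 9.15 CPM in luminal libraries, and *Krt17*, a keratin of basal and stressed epithelium, at 0.312, 21.03 and 1.62 CPM in basal and 3.16, 2.43 and 1.22 CPM in luminal libraries. In both, basal replicate 4 was the highest of the 6 libraries and at least one of the other basal libraries was below its luminal partner (log2 fold change 0.08 ± 0.58, adjusted p = 0.94 for *Krt14* and log2 fold change 0.42 ± 0.60, adjusted p = 0.63 for *Krt17*).

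Other basal regulators were kept apart from the luminal libraries in all 3 pairs. *Mef2c*, a transcription factor of muscle and myoepithelium, was at 302, 526 and 75.5 CPM in basal and 4.94, 17.6 and 13.6 CPM in luminal libraries (log2 fold change 4.29 ± 0.55, adjusted p = 8.7e-08). *Snai2*, a repressor of luminal genes, was at 12.2, 44.8 and 60.3 CPM in basal and 0.79, 0.374 and 7.73 CPM in luminal libraries (log2 fold change 3.58 ± 0.45, adjusted p = 6.4e-08), and *Jag1*, a Notch ligand, at 214, 504 and 168 CPM in basal and 38.7, 42.7 and 26.04 CPM in luminal libraries (log2 fold change 2.87 ± 0.37, adjusted p = 1.1e-07). Every basal library was above every luminal one for these genes, although *Mef2c* and *Jag1* are also made by blood vessels and *Snai2* by fibroblasts. For *Snai2* all 3 basal libraries lay under the 87.2 to 390 CPM of the other basal libraries. Its log2 fold change was also smaller than the 5.76 of the other time points (difference -2.18, adjusted p = 0.0012, limma). The basal libraries of *Mef2c* and *Jag1* lay inside the range of the other basal libraries.

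Of the 20 genes of the basal identity list, 8 were called higher and 0 lower, beside 13.9% higher and 10.5% lower among all 17078 genes, and 6 of the 8 were at least 2-fold higher in each pair. A call is a fold change of at least 2 with a Benjamini-Hochberg false discovery rate under 0.01 from limma over all genes. The median log2 fold change of the list was 0.45, that of all genes was 0.05, and the list's median gap at the other time points was 4.23. The summed level of the list was 1456, 1675 and 679 CPM in basal replicates 2, 4 and 6, 211, 172 and 208 CPM in their luminal partners and 3164 to 9978 CPM in the other basal libraries. *Lifr* was its most abundant gene in basal replicates 2 and 6 and *Mef2c* in replicate 4. In basal replicate 2, *Lifr*, *Mef2c* and *Jag1* were at 847, 302 and 214 CPM, so the sum says little about the other members. In basal replicate 2, 7 of the 20 genes had no read (*Krt15*, *Bcl11b*, *Dsc3*, *Dsg3*, *Pkp1*, *Wnt10a* and *Wnt6*). In these pooled-cell libraries, fewer cells of a type and less RNA per cell cannot be told apart. The label basal was thus not borne out by *Trp63* and *Krt14* in replicates 2 and 6, and basal stands below for the CD29 high gate of the labels.

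**Figure D1:**
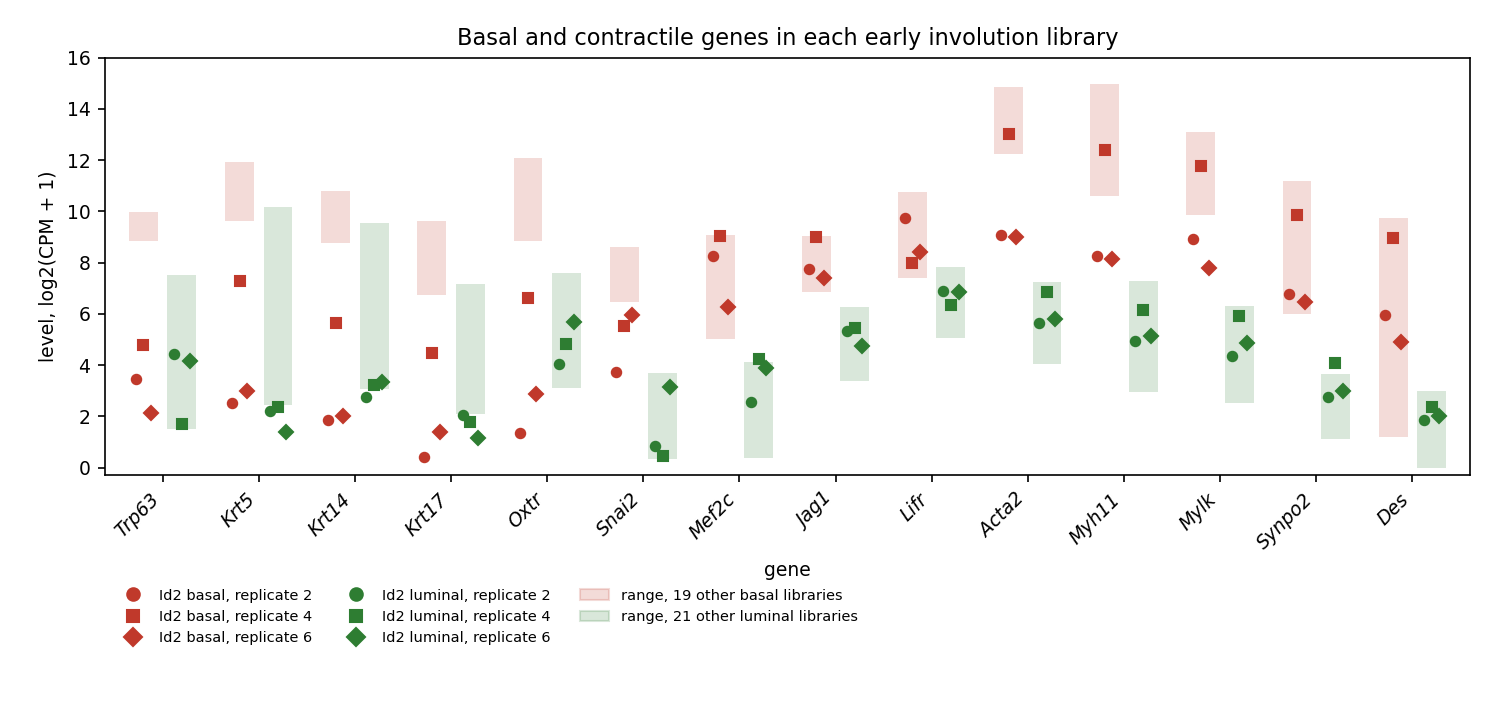
Level of 14 basal and contractile genes in each library, in log2(CPM + 1). Red points are the 3 basal and green points the 3 luminal libraries of Id2, with a marker shape for each replicate, and the pale boxes span the 19 other basal and 21 other luminal libraries. All 3 basal points of *Trp63*, *Krt5*, *Krt14*, *Krt17* and *Oxtr* lie under the red box, and for the contractile genes *Acta2*, *Myh11* and *Mylk* replicate 4 lies inside it and replicates 2 and 6 under it.

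Markers of other cell types differed among the basal libraries, and each library was high for a different set. The 15 endothelial genes summed to 23364, 966 and 774 CPM in basal replicates 2, 4 and 6, against 492, 486 and 173 CPM in the luminal libraries and 26.6 to 2183 CPM in the other basal libraries. All 15 were highest in replicate 2, where von Willebrand factor (*Vwf*) was the most abundant, and none was at 0. Of the 15, 11 were called higher and 0 lower, beside 13.9% and 10.5% of all genes, but only 3 were at least 2-fold higher in each pair. The count was 1 without replicate 2, 5 with the pairing ignored and 6 with edgeR or a pseudocount of 0.1. *Pecam1* (ENSMUSG00000020717), which encodes the CD31 used to remove endothelial cells, was at 3205, 114 and 81.4 CPM in basal and 46.6, 88.1 and 15.3 CPM in luminal libraries (log2 fold change 2.93 ± 0.87, adjusted p = 0.0067), and without replicate 2 its log2 fold change was 1.35 (adjusted p = 0.26). Its call was also lost without replicate 6 (adjusted p = 0.013), with the pairing ignored (0.017) and with edgeR (0.016).

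Fibroblast RNA was highest in replicate 6. The 14 fibroblast genes summed to 3905, 12391 and 80602 CPM in the basal libraries and 258, 573 and 5818 CPM in the luminal libraries, against 658 to 13441 CPM in the other basal libraries. All 14 were highest in basal replicate 6 with *Col1a1* the most abundant, none was at 0 in a basal library, and the luminal library of the same sort was the highest luminal one, above the 40.2 to 982 CPM of the other luminal libraries. *Pdgfra* (ENSMUSG00000029231), the mouse gene of CD140a, against which an antibody to the human antigen is listed, was at 51.5, 301 and 2002 CPM in basal and 4.15, 11.8 and 155 CPM in luminal libraries (log2 fold change 3.87 ± 0.93, adjusted p = 0.001). *Col1a1* (ENSMUSG00000001506), the main chain of type I collagen, was at 1148, 4359 and 27788 CPM in basal and 87.1, 199.7 and 2017 CPM in luminal libraries (log2 fold change 3.98 ± 0.99, adjusted p = 0.0015). Both kept the same order of the 3 sorts in basal and in luminal libraries. Without replicate 4 their adjusted p-values were 0.017. The fibroblast list shares *Col1a1*, *Col1a2* and *Col3a1* with the collagen list below. In basal replicate 6 these were at 27788, 17885 and 18487 CPM of the 80602 CPM, so the fibroblast and collagen values are not independent.

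Markers of pericytes and vascular smooth muscle summed to 3561, 13671 and 3380.4 CPM in the basal libraries, with *Rgs5* the most abundant in each, and to 214, 372 and 352 CPM in the luminal libraries. The other basal libraries ran from 159 to 19239.9 CPM. Of the 10 genes, 7 were highest in replicate 4, all 10 were called higher (all genes, 13.9%), 9 of them in each pair, and none was at 0. *Rgs5* (ENSMUSG00000026678), a regulator of G-protein signaling that marks pericytes, was at 2175, 6932 and 1442 CPM in basal and 106, 211 and 143 CPM in luminal libraries (log2 fold change 4.23 ± 0.60, adjusted p = 4.8e-07). *Cspg4*, the NG2 proteoglycan of pericytes, was at 59.02, 679.9 and 56.1 CPM in basal and 3.36, 4.87 and 5.29 CPM in luminal libraries (log2 fold change 4.61 ± 0.50, adjusted p = 3.4e-09), and *Pdgfrb*, their growth factor receptor, at 128, 656 and 585 CPM in basal and 4.94, 10.5 and 40.9 CPM in luminal libraries (log2 fold change 4.70 ± 0.62, adjusted p = 1.4e-07). *Aoc3*, an amine oxidase of smooth muscle and fat, read 168, 1906 and 205 CPM in basal and 8.69, 20.03 and 13.2 CPM in luminal libraries (log2 fold change 4.83 ± 0.51, adjusted p = 2.6e-09). For all of these, every basal library was above every luminal library.

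The 12 macrophage genes summed to 56.5, 69.5 and 77.7 CPM in basal and 56.9, 227 and 291 CPM in luminal libraries. The other basal libraries ran from 3.79 to 130.1 CPM and the other luminal libraries from 10.3 to 153 CPM, so luminal replicates 4 and 6 were above every other luminal library. Of the 12 genes, 0 were called higher in basal libraries and 2 lower, beside 13.9% and 10.5% of all genes (*Cd68*, 8.9002, 10.9 and 9.21 CPM in basal and 21.3, 42.9 and 52.1 CPM in luminal libraries, and the complement gene *C1qa*, 0.156, 1.55 and 0.162 CPM in basal and 2.96, 7.86 and 2.85 CPM in luminal libraries). *Cd163* in basal replicate 2 and *Fcgr1* in basal replicate 6 had no read. *Lyz2* was the most abundant macrophage gene in basal replicate 2 and *Csf1r* in the other two. With edgeR in place of limma the adjusted p was 0.026 for *Cd68* and 0.080 for *C1qa*, and 0 macrophage genes were called with edgeR, with a pseudocount of 0.1, without replicate 4 or without replicate 6. The call of *C1qa* was also lost without replicate 2 (adjusted p = 0.016), and that of *Cd68* with the pairing ignored (0.011). Only 3 of 10 lymphocyte genes were in the table (*Cd3e*, *Cd8a* and *Cd4*), with sums of 3.75, 11.8 and 47.995 CPM in basal and 4.74, 9.73 and 12.8 CPM in luminal libraries and 0 called. The other basal libraries ran from 0.217 to 19.6 CPM, under basal replicate 6, and the other luminal ones from 0 to 164 CPM. Of the antigens used for negative selection, *Itgam* (CD11b) was at 5.31, 1.16 and 0.323 CPM in basal and 3.16, 12.7 and 21.2 CPM in luminal libraries (log2 fold change -2.04 ± 0.55, adjusted p = 0.0031), higher in the basal library of replicate 2 and lower in the other sorts. Without replicate 6 its log2 fold change was −1.03 (adjusted p = 0.22) and without replicate 4 it was −1.73 (adjusted p = 0.050). The call of *Itgam* was also lost with edgeR and with a pseudocount of 0.1. Its reads are uncertain because 68.7% of its exon bases are shared with another gene model. The part that RNA of other cell types plays in the gene groups below was not tested.

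**Figure D2:**
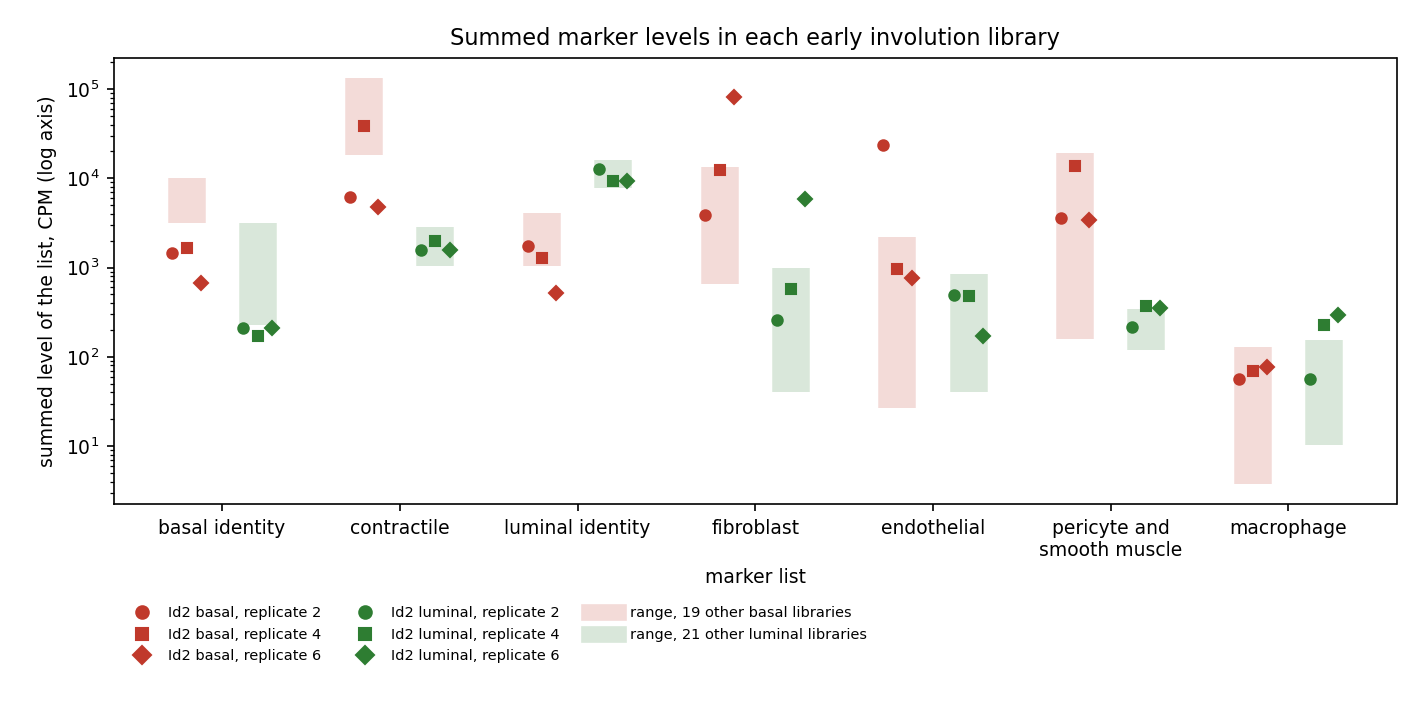
Summed level of 7 marker lists in each library, in CPM on a log axis. Red points are basal and green points luminal libraries of Id2, with a marker shape for each replicate, and the pale boxes span the 19 other basal and 21 other luminal libraries. The endothelial sum of basal replicate 2 (23364 CPM) and the fibroblast sum of basal replicate 6 (80602 CPM) lie above their boxes, and the basal identity sums of all 3 lie under theirs.

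Across all 17078 genes, 2374 (13.9%) were called higher in basal libraries and 1795 (10.5%) lower. At least 2-fold in the same direction in each of the 3 pairs were 1384 of the higher genes (8.10% of all genes) and 1129 of the lower ones (6.61%). The fit used the spread of all 16 conditions. Basal libraries of Id2 spread the most of these, with a mean variance of 0.608 on the log2 scale against 0.239 in luminal libraries of Id2. In a limma fit of the 6 libraries alone, 0 genes passed, the smallest adjusted p was 0.0156, and 5359 genes had an unadjusted p under 0.05. The adjusted p-values given here therefore lean on the smaller spread of other time points, and the separate library values carry the comparison.

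Most genes for contraction were higher in basal libraries, in amounts that differed between the sorts. Of 23 contractile genes, 20 were called higher and 0 lower, beside 13.9% and 10.5% of all genes, and 13 were higher in each pair. The median log2 fold change was 2.79 (all genes, 0.05), with pair medians of 2.10, 4.57 and 1.35 for replicates 2, 4 and 6. The list summed to 6104, 38201 and 4744 CPM in basal libraries and 1560.1, 1968 and 1569 CPM in luminal ones, and 21 of its 23 genes were highest in basal replicate 4. That library alone fell inside the range of the other basal libraries, 18038 to 133392 CPM. Without replicate 4, 15 were called higher and 1 lower.

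*Acta2* (ENSMUSG00000035783), smooth muscle actin, was at 537, 8399 and 515 CPM in basal and 49.2, 116 and 54.5 CPM in luminal libraries. Each basal library was above each luminal one, but replicates 2 and 6 were well below replicate 4 (log2 fold change 4.27 ± 0.55, adjusted p = 1.1e-07). *Myh11* (ENSMUSG00000018830), the smooth muscle myosin heavy chain, was at 307, 5346 and 284 CPM in basal and 30.04, 69.2 and 33.8 CPM in luminal libraries (log2 fold change 4.20 ± 0.58, adjusted p = 3.5e-07). The kinase that switches this myosin on, *Mylk*, was at 484, 3509 and 221 CPM in basal and 19.2, 58.8 and 28.3 CPM in luminal libraries (log2 fold change 4.46 ± 0.52, adjusted p = 1.5e-08). All of these genes are shared between myoepithelium and vascular smooth muscle. Of the 10 markers of pericytes and vascular smooth muscle, 7 were also highest in replicate 4.

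The genes with the largest contractile changes were *Des* and *Synpo2*, with *Mylk*. *Des*, the muscle intermediate filament desmin, was at 61.7, 500.3 and 28.6 CPM in basal and 2.57, 4.12 and 3.05 CPM in luminal libraries (log2 fold change 4.54 ± 0.57, adjusted p = 5.7e-08). *Synpo2*, an actin-bundling protein of muscle, was at 108, 933 and 86.8 CPM in basal and 5.73, 15.7 and 6.92 CPM in luminal libraries (log2 fold change 4.43 ± 0.50, adjusted p = 9.7e-09). *Myocd*, the coactivator of serum response factor that drives smooth muscle genes, was called higher in each pair (log2 fold change 3.43), while *Srf* itself was not called (0.36).

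*Oxtr* (ENSMUSG00000049112), the receptor through which oxytocin makes myoepithelium contract, did not follow the contractile proteins. It was at 1.56, 98.2 and 6.302 CPM in basal and 15.6, 27.1 and 49.6 CPM in luminal libraries, so basal replicate 4 was above all luminal libraries and the other basal libraries were below them (log2 fold change -1.22 ± 0.70, adjusted p = 0.17). Without replicate 4 it was called lower in basal cells (log2 fold change −2.75, adjusted p = 0.0013).

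Serum response factor binds the CArG box, and the promoters of the contractile genes were searched for it because most of these genes were called higher. RefSeq promoters (GRCm38.p6, from 250 bases before to 50 after the start) were found for 18 of the 23 genes. The strict consensus of the box is its own reverse complement, so a search of one strand covers both. It was in the promoters of 3 of the 18 genes (16.7%), and in those of 488 of 27025 genes (1.81%). The 4 stretches that hold it are shown on the strand of the gene with 15 bases on each side, and the capitals mark the box. They belong to *Myl9* (the regulatory myosin light chain, chr2:156775288-156775327, plus strand), *Vcl* (vinculin, chr14:20929156-20929195, plus strand) and *Srf*, with an upstream box (chr17:46556220-46556259, minus strand) and a downstream box (chr17:46556200-46556239, minus strand), whose stretches overlap.
Myl9: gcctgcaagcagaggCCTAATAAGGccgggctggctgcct
Vcl: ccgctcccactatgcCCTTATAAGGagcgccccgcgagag
Srf upstream: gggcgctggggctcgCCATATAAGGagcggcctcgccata
Srf downstream: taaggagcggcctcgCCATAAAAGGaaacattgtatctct
*Myl9* was called higher with a log2 fold change of 4.42 and *Vcl* with 1.55, while *Srf* was not called. A match is a description of the letters and not evidence of binding.

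Basal cells are held to the basement membrane by hemidesmosomes, in which the integrin α6β4 grips laminins, whose chains include those encoded by *Lama3* and *Lamb3*. Of 13 genes of this group, 3 were called higher and 3 lower, beside 13.9% and 10.5% of all genes (2 and 2 in each pair), with a median log2 fold change of -0.47 against 1.75 at the other time points. The members moved in different directions. *Lama3* was higher, at 12.2, 77.3 and 12.3 CPM in basal and 5.34, 10.3 and 4.48 CPM in luminal libraries (log2 fold change 1.71 ± 0.49, adjusted p = 0.005). This call was lost without replicate 4 (log2 fold change 1.17, adjusted p = 0.082), without replicate 6 (adjusted p = 0.011) and with the pairing ignored (adjusted p = 0.014). *Lamb3* was lower in basal cells, at 5.93, 24.3 and 1.62 CPM in basal and 46.2, 86.5 and 31.3 CPM in luminal libraries (log2 fold change -2.73 ± 0.37, adjusted p = 2.7e-07). Each luminal library was above each basal library for it.

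The α6 integrin gene *Itga6* was lower in all basal libraries, at 461, 239.7 and 39.4 CPM in basal and 954, 1297 and 698 CPM in luminal libraries (log2 fold change -2.53 ± 0.38, adjusted p = 1.5e-06). *Itgb1*, which encodes the CD29 antigen that the gate used to tell basal from luminal cells, was at 932, 1037 and 676 CPM in basal and 324, 482 and 321 CPM in luminal libraries (log2 fold change 1.23 ± 0.20, adjusted p = 4.2e-06), so its direction is that of the gate. The linker protein gene *Plec* was at 932, 1123 and 592 CPM in basal and 516, 343 and 296 CPM in luminal libraries (log2 fold change 1.19 ± 0.27, adjusted p = 0.00045), and without replicate 4 its log2 fold change was 0.93 (adjusted p = 0.025).

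Luminal identity stood apart from basal cells in every sort. Of 22 luminal genes, 0 were called higher and 20 lower in basal libraries, beside 13.9% and 10.5% of all genes, 19 of them in each pair, and the median log2 fold change was -3.22. The list includes *Cd24a*, whose product was gated on in both populations. The list summed to 1766, 1269 and 525 CPM in basal libraries and 12682, 9219 and 9378 CPM in luminal ones, and basal replicate 6 was under the 1041 to 4074 CPM of the other basal libraries.

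*Krt8* (ENSMUSG00000049382) and *Krt18* (ENSMUSG00000023043), the keratin pair of simple epithelium, were at 53.2, 53.4 and 15.998 CPM in basal and 478, 326 and 243 CPM in luminal libraries (log2 fold change -3.19 ± 0.38, adjusted p = 2.7e-08) and at 82.9, 99.8 and 31.5 CPM in basal and 1152, 688 and 579.8 CPM in luminal libraries (log2 fold change -3.57 ± 0.47, adjusted p = 1.6e-07). *Elf5* (ENSMUSG00000027186), the transcription factor of alveolar secretory cells, was at 59.96, 75.7 and 33.9 CPM in basal and 619, 541 and 473 CPM in luminal libraries (log2 fold change -3.31 ± 0.48, adjusted p = 8.7e-07). No basal library reached a luminal one, and basal replicate 6 was the lowest in each.

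The largest changes of the list were in *Cldn4*, *Epcam* and *Muc1*. *Cldn4*, a tight junction claudin, was at 134, 123 and 42.02 CPM in basal and 2517, 1201 and 739 CPM in luminal libraries (log2 fold change -3.87 ± 0.64, adjusted p = 6.4e-06). *Epcam*, an epithelial adhesion molecule, was at 104, 112 and 31.7 CPM in basal and 879, 1029.7 and 955 CPM in luminal libraries (log2 fold change -3.71 ± 0.40, adjusted p = 2.8e-09), and *Muc1*, a mucin of the apical surface, at 57.3, 66.2 and 20.5 CPM in basal and 635, 521 and 529.9 CPM in luminal libraries (log2 fold change -3.68 ± 0.53, adjusted p = 6.6e-07). The hormone receptors *Pgr* (-2.23) and *Prlr* (-2.90) were also called lower in basal cells.

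Milk genes were abundant in the luminal libraries 2 days after weaning, and *Csn2* led the list in all 6 libraries. Of 16, 15 were called lower in basal libraries, beside 10.5% of all genes, all in each pair, with a median log2 fold change of -3.59, and *Glycam1* missed the call. *Csn2* (ENSMUSG00000063157), β-casein, was at 20495, 19842 and 5232 CPM in basal and 225473, 150308 and 180653 CPM in luminal libraries (log2 fold change -3.83 ± 0.74, adjusted p = 6.9e-05). *Wap*, whey acidic protein, was at 3023, 2748 and 602 CPM in basal and 43978, 23951 and 14547 CPM in luminal libraries (log2 fold change -3.86 ± 0.89, adjusted p = 0.00062), and *Cel*, the milk lipase, at 268, 172 and 49.4 CPM in basal and 2516, 1568 and 1348 CPM in luminal libraries (log2 fold change -3.72 ± 0.64, adjusted p = 1.2e-05). Basal libraries of replicates 2 and 4 held more of these milk transcripts than replicate 6. Without replicate 6 the adjusted p of *Wap* was 0.011.

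The acute-phase and defence genes followed the same split, with 15 of 16 called lower in basal libraries, beside 10.5% of all genes, all in each pair. The median was -3.28. *Lrg1* missed the call, at 2936, 154 and 79.5 CPM in basal and 2345, 1073 and 1010 CPM in luminal libraries (log2 fold change -2.04 ± 0.75, adjusted p = 0.028, limma). In basal replicate 2 it was above its luminal partner and was the most abundant gene of the list. *Ltf* (ENSMUSG00000032496), lactoferrin, was at 1335, 1947 and 498 CPM in basal and 19273, 19819 and 13279.6 CPM in luminal libraries (log2 fold change -3.98 ± 0.65, adjusted p = 6.2e-06). The acute-phase glycoprotein gene *Orm1*, whose reads can be shared with its near copy *Orm2*, was at 28.9, 23.5 and 7.11 CPM in basal and 253, 207 and 208 CPM in luminal libraries (log2 fold change -3.62 ± 0.53, adjusted p = 9.5e-07). *Pigr*, which carries antibodies into milk, was at 319.9, 256 and 129 CPM in basal and 3132, 2330.1 and 2662 CPM in luminal libraries (log2 fold change -3.61 ± 0.69, adjusted p = 5.9e-05). Serum amyloid genes *Saa1* (log2 fold change -3.61) and *Saa2* (-3.17) are close relatives and were both called.

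In these luminal lists the basal libraries kept a like share of the luminal level within a sort. The median basal level as a percent of the luminal level in replicates 2, 4 and 6 was 11.5, 13.8 and 5.904% for luminal identity genes, 11.9, 13.1 and 4.15% for milk genes and 12.4, 12.5 and 5.096% for acute-phase genes. Replicate 6 had the lowest share in all of the 3 lists. For the lysosomal genes the shares were 58.1, 43.3 and 58.4%. The authors re-sorted some cells of each sample and reported low cross contamination between the luminal and basal gates. How much of the basal level comes from luminal RNA was not tested here.

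**Figure D3:**
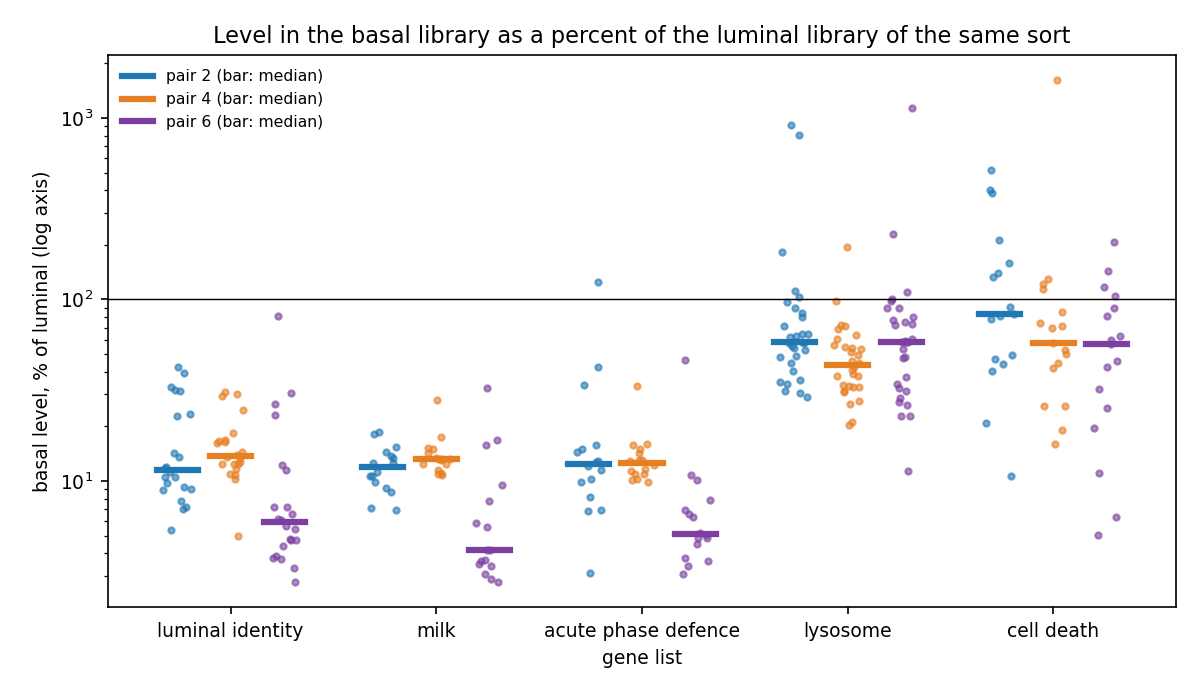
Level in the basal library as a percent of the luminal library of the same sort, on a log axis, for the genes of 5 lists. Points are genes, bars are list medians, colours are the pairs of replicates 2, 4 and 6, and the black line marks 100%. Medians of the luminal identity, milk and acute-phase lists lie between 4.15 and 13.8%, and those of the lysosome list between 43.3 and 58.4%.

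STAT3 signaling starts involution, and genes of its ligands and receptors differed in direction. *Lif* (leukemia inhibitory factor) was lower in basal libraries, at 102, 329 and 129 CPM in basal and 1146, 1357 and 1562 CPM in luminal libraries (log2 fold change -3.03 ± 0.60, adjusted p = 9.7e-05). *Lifr*, its receptor, was higher, at 847, 249 and 340.2 CPM in basal and 119, 80.8 and 115 CPM in luminal libraries (log2 fold change 1.99 ± 0.33, adjusted p = 6.2e-06). The shared receptor subunit *Il6st* (gp130) was at 4849, 1575 and 1268 CPM in basal and 512, 434 and 574 CPM in luminal libraries (log2 fold change 2.08 ± 0.29, adjusted p = 4.2e-07). Luminal libraries were thus above basal ones for *Lif*, and basal libraries above luminal ones for both receptor chains, in every sort. *Il6*, a further ligand of gp130 that is described with the cytokines, was higher in the basal library of each sort.

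*Osmr*, the oncostatin M receptor, was at 840.4, 654 and 797 CPM in basal and 242, 253 and 295 CPM in luminal libraries (log2 fold change 1.53 ± 0.36, adjusted p = 0.00082), and without replicate 2 its adjusted p was 0.015. *Stat3* (ENSMUSG00000004040) itself was near even, at 722, 512 and 396 CPM in basal and 778, 687 and 666 CPM in luminal libraries (log2 fold change -0.43 ± 0.21, adjusted p = 0.11). Of its known involution targets, *Igfbp5*, which binds insulin-like growth factor, was at 1379, 3739 and 877 CPM in basal and 13076, 12598 and 16141 CPM in luminal libraries (log2 fold change -3.07 ± 0.43, adjusted p = 3.6e-07). *Tgfb3*, a growth factor of milk stasis, was at 72.6, 310.4 and 125 CPM in basal and 504, 505 and 614 CPM in luminal libraries (log2 fold change -1.92 ± 0.37, adjusted p = 6e-05). Over the 16 genes of this axis in the table, of 17 listed, 3 were called higher and 4 lower, beside 13.9% and 10.5% of all genes (3 and 2 in each pair), with a median of -0.13. The higher share is near that of all genes.

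Lysosomal genes were lower in basal libraries by a smaller margin than the milk genes. Of 30 in the table, of 31 listed, 1 was called higher and 10 lower, beside 13.9% and 10.5% of all genes (0 and 6 in each pair), with a median of -0.87. The cathepsin D gene *Ctsd* was at 1207, 810.1 and 479 CPM in basal and 4159, 3993 and 4201 CPM in luminal libraries (log2 fold change -2.40 ± 0.25, adjusted p = 2.1e-09). *Ctsl*, cathepsin L, was at 551, 524 and 434 CPM in basal and 1567, 2471 and 1914 CPM in luminal libraries (log2 fold change -1.96 ± 0.28, adjusted p = 5.2e-07), and *Ctsa*, a carboxypeptidase, at 268, 198 and 152 CPM in basal and 852, 717 and 666 CPM in luminal libraries (log2 fold change -1.88 ± 0.21, adjusted p = 8.6e-09). *Ctsd* and *Ctsl* share 34.4% and 26.8% of their exon bases with other gene models. The exception, *Hexa*, a hexosaminidase subunit, was higher, at 37.9, 12.02 and 39.1 CPM in basal and 4.74, 6.18 and 3.46 CPM in luminal libraries (log2 fold change 2.26 ± 0.45, adjusted p = 9.4e-05). Genes of the proton pump that acidifies lysosomes were among the 10, such as *Atp6v1e1* (-1.65) and *Atp6v0b* (-1.48).

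Cell death genes showed 1 call higher and 4 lower of 17, beside 13.9% and 10.5% of all genes (0 and 2 in each pair), with a median of -0.53. *Tnf*, an inflammatory cytokine that can trigger death, was at 12.2, 13.5 and 5.01 CPM in basal and 114, 70.4 and 99.9 CPM in luminal libraries (log2 fold change -3.16 ± 0.51, adjusted p = 4.9e-06). *Bcl2l1*, the survival factor Bcl-x, was at 67.1, 29.9 and 19.9 CPM in basal and 319.9, 188 and 101 CPM in luminal libraries (log2 fold change -2.38 ± 0.37, adjusted p = 2.9e-06). *Bcl2l11*, the pro-death factor Bim, was at 84.8, 37.8 and 18.4 CPM in basal and 93.5, 145 and 168 CPM in luminal libraries (log2 fold change -1.72 ± 0.34, adjusted p = 9.6e-05). It was close to even in replicate 2, and without replicate 6 its log2 fold change was −1.03 (adjusted p = 0.029). The survival gene *Bcl2* was the one called higher, at 8.74, 24.1 and 27.3 CPM in basal and 2.17, 1.497 and 13.2 CPM in luminal libraries (log2 fold change 1.98 ± 0.44, adjusted p = 0.00043). Without replicate 4 its log2 fold change was 1.31 (adjusted p = 0.048).

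Of 18 genes for the uptake of dead cells, 6 were called higher and 1 lower, beside 13.9% and 10.5% of all genes (5 and 1 in each pair), with a median of 0.68. The lower gene, *Mfge8*, is the milk-fat protein that bridges dead cells to the integrins of a phagocyte, and it also stands in the milk list. It was at 1138, 1385 and 486 CPM in basal and 16115, 10543 and 8689 CPM in luminal libraries (log2 fold change -3.64 ± 0.38, adjusted p = 1.9e-09). *Axl*, a receptor for coated dead cells, was at 127, 1107 and 1051 CPM in basal and 19.4, 43.8 and 92.8 CPM in luminal libraries (log2 fold change 3.59 ± 0.49, adjusted p = 2.5e-07). *Lrp1*, a scavenger receptor, was at 336, 1528 and 4248 CPM in basal and 60.3, 62.7 and 331 CPM in luminal libraries (log2 fold change 3.57 ± 0.50, adjusted p = 4.4e-07), and *Itgb3*, an integrin partner for *Mfge8*, at 55.1, 45.4 and 82.1 CPM in basal and 3.56, 2.81 and 7.32 CPM in luminal libraries (log2 fold change 3.52 ± 0.50, adjusted p = 4.7e-07). *Axl* and *Lrp1* were lowest in replicate 2, the basal library with the least fibroblast RNA.

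Genes of the extracellular matrix were among the groups most often higher in basal libraries. Of 19 collagen genes, 17 were called higher and 0 lower (15 and 0 in each pair), beside 13.9% and 10.5% of all genes, with a median log2 fold change of 3.94 (all genes, 0.05). Of the 19, 17 were highest in basal replicate 6. *Col1a1*, *Col1a2* and *Col3a1* also stand in the fibroblast list. *Col5a3*, a fibril-starting collagen chain, was at 32.5, 216 and 382 CPM in basal and 2.77, 3.74 and 10.8 CPM in luminal libraries (log2 fold change 4.56 ± 0.57, adjusted p = 5.8e-08). *Col15a1*, of the basement membrane zone, was at 723, 417 and 1830.0 CPM in basal and 15.4, 32.4 and 96.4 CPM in luminal libraries (log2 fold change 4.45 ± 0.65, adjusted p = 9.7e-07). *Col12a1*, which sits on collagen fibrils, was at 272, 2928 and 6785 CPM in basal and 27.5, 67.001 and 522 CPM in luminal libraries (log2 fold change 4.13 ± 0.65, adjusted p = 2.8e-06). Their basal libraries all lay above the luminal library of the same sort. Without replicate 4, 11 of the 19 collagens and 6 of the 14 fibroblast genes were called, against 12 fibroblast genes with it (all genes, 13.9%).

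Of 27 matrix proteolysis genes in the table, of 28 listed, 20 were called higher and 1 lower, beside 13.9% and 10.5% of all genes (17 and 0 in each pair), with a median of 3.00. *Adamts1*, a protease that cleaves proteoglycans, was at 1485, 3498 and 1789 CPM in basal and 37.9, 103 and 117 CPM in luminal libraries (log2 fold change 4.75 ± 0.47, adjusted p = 6e-10). *Adamts4*, an aggrecanase, was at 4387, 3375 and 1666 CPM in basal and 111, 159 and 134 CPM in luminal libraries (log2 fold change 4.44 ± 0.55, adjusted p = 4.3e-08). The metalloproteinase inhibitor *Timp3* was at 1949, 1724 and 724 CPM in basal and 55.9, 75.6 and 71.8 CPM in luminal libraries (log2 fold change 4.30 ± 0.48, adjusted p = 8.3e-09), and its gene lies within an intron of *Syn3*, with 21.3% of its exon bases shared. For these 3 genes each basal library was above every luminal library, and replicate 6 was not the highest. Over the whole list, 16 of 27 genes were highest in basal replicate 6, the library with the most fibroblast RNA, such as *Mmp2* at 141, 158 and 1046 CPM and *Mmp3* at 12.8, 21.2 and 194 CPM in the basal libraries.

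*Mmp15*, a membrane-bound matrix metalloproteinase, was the one called lower, at 40.6, 10.5 and 6.95 CPM in basal and 74.5, 48.3 and 48.8 CPM in luminal libraries (log2 fold change -1.87 ± 0.38, adjusted p = 0.00012). Both proteases and their inhibitors were in the group of higher genes, such as the gelatinase *Mmp2* (3.92), stromelysin *Mmp3* (3.26) and the inhibitor *Timp1* (3.19).

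**Figure D4:**
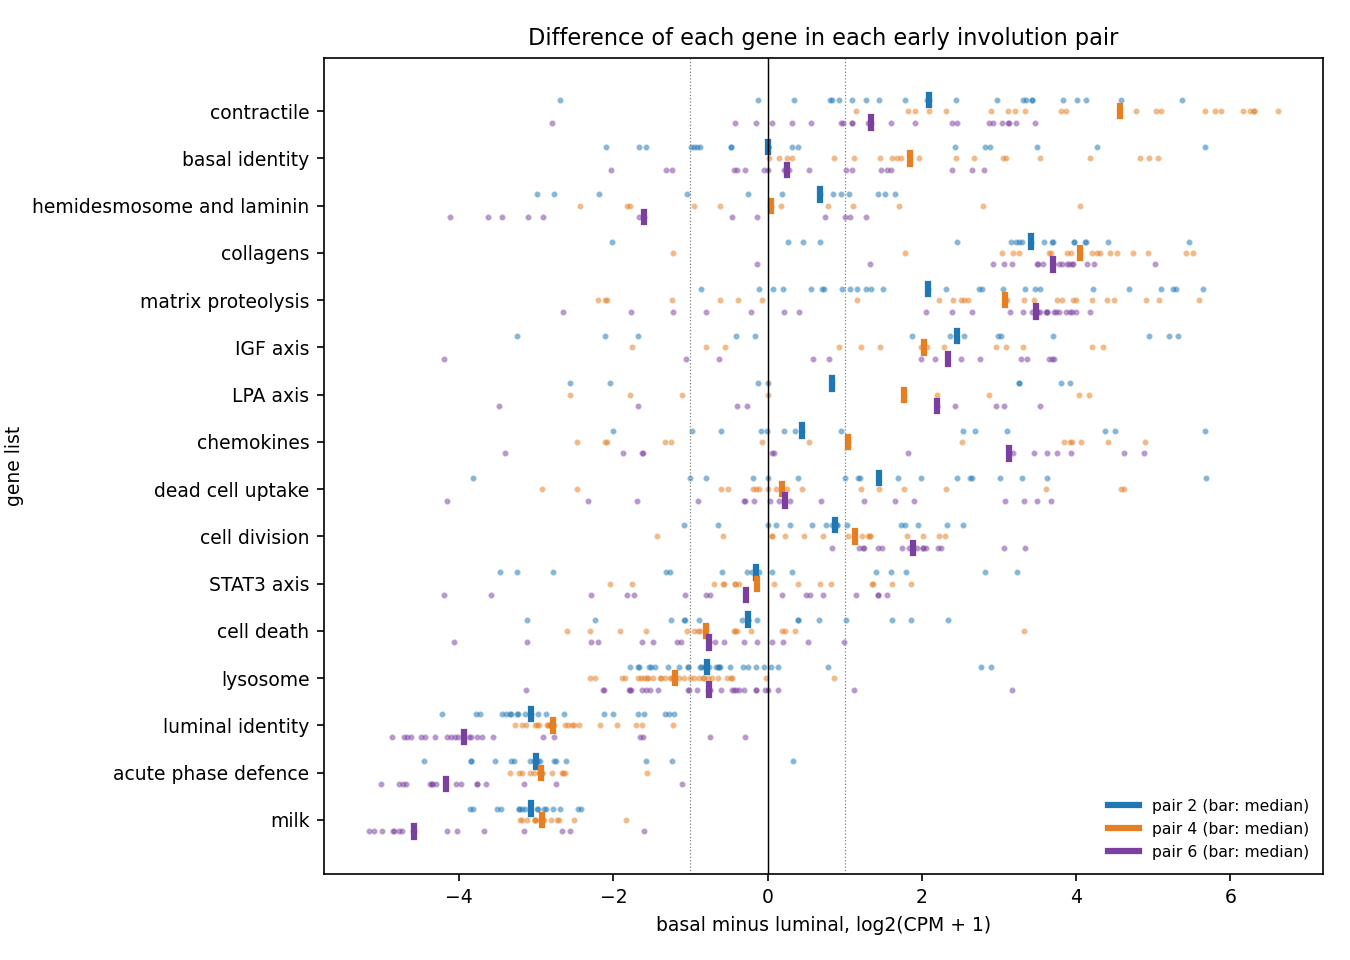
Basal minus luminal difference in log2(CPM + 1) of each gene of 16 lists, with a colour for each pair of replicates 2, 4 and 6. Points are genes, thick bars are the medians of a list in a pair, and dotted lines mark a 2-fold difference. Collagen medians are 3.42, 4.06 and 3.70 in the 3 pairs and milk medians -3.07, -2.93 and -4.59, while the contractile median is 4.57 in pair 4 and 1.35 in pair 6.

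Lysophosphatidic acid (LPA) is a signaling lipid that autotaxin makes outside the cell, that G-protein-coupled receptors read and that lipid phosphatases remove. Of 9 genes of this axis, 5 were called higher and 2 lower, beside 13.9% and 10.5% of all genes (4 and 2 in each pair), with a median of 2.48. *Enpp2* (ENSMUSG00000022425), autotaxin, was at 24.05, 30.3 and 60.4 CPM in basal and 0.79, 0.749 and 6.31 CPM in luminal libraries (log2 fold change 3.68 ± 0.85, adjusted p = 0.00063). *Lpar1* (ENSMUSG00000038668), an LPA receptor, was at 8.59, 52.3 and 225 CPM in basal and 9.49, 2.25 and 18.5 CPM in luminal libraries (log2 fold change 2.48 ± 0.63, adjusted p = 0.0017). *Lpar1* was below its luminal partner in replicate 2 and was highest in replicate 6, the order of the fibroblast genes. Without replicate 4 its log2 fold change was 1.70 (adjusted p = 0.075), and that of *Enpp2* was 3.44 (adjusted p = 0.011). Without replicate 6 that of *Lpar1* was 1.95 (adjusted p = 0.020), and without replicate 2 it was 3.79.

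*Lpar2* was low in all libraries, at 0.312, 1.55 and 0.646 CPM in basal and 6.72, 4.49 and 4.27 CPM in luminal libraries (log2 fold change -1.78 ± 0.40, adjusted p = 0.00049), and in basal replicate 2 it was at or under the 3-read level. Without replicate 2 its log2 fold change was −1.39 (adjusted p = 0.026). The phosphatases split by gene. *Plpp3* was at 494, 239 and 414 CPM in basal and 31.8, 31.8 and 52.5 CPM in luminal libraries (log2 fold change 3.25 ± 0.31, adjusted p = 3.2e-10). *Plpp1*, which shares 25.8% of its exon bases with *Mtrex*, was at 80.9, 32.8 and 24.1 CPM in basal and 7.51, 6.36 and 4.48 CPM in luminal libraries (log2 fold change 2.55 ± 0.39, adjusted p = 1.8e-06), and *Plpp2* was at 22.95, 23.2 and 4.85 CPM in basal and 98.2, 82.2 and 64.5 CPM in luminal libraries (log2 fold change -2.44 ± 0.32, adjusted p = 1.4e-07).

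Of 14 genes of insulin-like growth factor signaling, 8 were called higher and 1 lower, beside 13.9% and 10.5% of all genes, all in each pair, with a median of 2.29. *Igf1* (ENSMUSG00000020053), the growth factor itself, was at 555, 224 and 1788 CPM in basal and 16.99, 52.6 and 142 CPM in luminal libraries (log2 fold change 3.55 ± 0.80, adjusted p = 0.00049). Without replicate 2 its call was lost (log2 fold change 2.86, adjusted p = 0.020). *Igfbp7* was at 1841, 1524 and 793 CPM in basal and 49.01, 81.2 and 80.6 CPM in luminal libraries (log2 fold change 4.23 ± 0.46, adjusted p = 4.2e-09) and *Igfbp4* at 498, 223 and 451 CPM in basal and 11.5, 27.7 and 33.4 CPM in luminal libraries (log2 fold change 4.00 ± 0.50, adjusted p = 4.9e-08). The binding proteins differed in direction, since *Igfbp5*, given above, was the gene called lower.

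Of 15 cytokine and chemokine genes in the table, of 16 listed, 8 were called higher and 2 lower, beside 13.9% and 10.5% of all genes (6 and 1 in each pair), with a median of 1.71. *Il6*, another ligand that signals through gp130, was at 2489, 1511 and 760.0 CPM in basal and 47.8, 69.99 and 60.6 CPM in luminal libraries (log2 fold change 4.57 ± 0.57, adjusted p = 6.1e-08). *Ccl2*, which attracts monocytes, was at 97.6, 346 and 695 CPM in basal and 3.36, 19.8 and 44.6 CPM in luminal libraries (log2 fold change 4.16 ± 0.65, adjusted p = 2.5e-06), and *Cxcl14* was at 41.7, 363 and 1045 CPM in basal and 3.95, 11.2 and 76.9 CPM in luminal libraries (log2 fold change 3.92 ± 0.69, adjusted p = 1.8e-05). *Ccl2* and *Cxcl14* had the order of the fibroblast sum over the 3 basal libraries, highest in replicate 6, while *Il6* was highest in replicate 2. The neutrophil attractant *Cxcl2* was lower in basal libraries, at 473, 379 and 125 CPM in basal and 1896, 2101 and 1326 CPM in luminal libraries (log2 fold change -2.62 ± 0.65, adjusted p = 0.0013), and without replicate 6 its adjusted p was 0.026. *Cxcl16* was at 72.5, 22.5 and 30.7 CPM in basal and 62.6, 99.9 and 95.8 CPM in luminal libraries (log2 fold change -1.17 ± 0.28, adjusted p = 0.00078), with the basal library above its partner in replicate 2. Its log2 fold change was −0.70 without replicate 4 (adjusted p = 0.084), −0.95 without replicate 6 (adjusted p = 0.029) and −1.86 without replicate 2.

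Of 16 genes of cell division, 4 were called higher and 0 lower, beside 13.9% and 10.5% of all genes (2 in each pair). They summed to 256, 428 and 811 CPM in basal and 108, 239 and 263 CPM in luminal libraries, against 95.1 to 2747 CPM in the other basal libraries. *Mcm3* and *Mcm6*, parts of the helicase that opens DNA for replication, were at 34.5, 31.6 and 31.8 CPM in basal and 5.14, 5.99 and 10.8 CPM in luminal libraries (log2 fold change 2.08 ± 0.49, adjusted p = 0.00078) and at 8.9002, 37.8 and 40.4 CPM in basal and 1.98, 8.61 and 10.6 CPM in luminal libraries (log2 fold change 1.86 ± 0.52, adjusted p = 0.004). *Rrm2*, which makes DNA building blocks, was at 3.44, 20.4 and 22.8 CPM in basal and 1.38, 3.37 and 1.83 CPM in luminal libraries (log2 fold change 2.09 ± 0.57, adjusted p = 0.0035). Of the 16 genes, 13 were highest in basal replicate 6. The count was 2 without replicate 2, 1 without replicate 4, 2 without replicate 6 or with the pairing ignored, and 7 with edgeR or at a false discovery rate of 0.05. The calls of *Rrm2* and *Mcm6* were lost without replicate 4 (adjusted p = 0.027 and 0.028, limma) and without replicate 6 (0.079 and 0.019). That of *Mcm3* was lost without replicate 2 (0.016) and without replicate 4 (0.0102).

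Fat cell and Schwann cell lists were incomplete. Of 5 adipocyte genes in the table, of 9 listed, 3 were called higher and 1 lower, beside 13.9% and 10.5% of all genes, and 2 were called in all without replicate 2 or without replicate 4. *Fabp4*, a fatty acid binding protein that capillary endothelium also makes, was at 3719, 598 and 241 CPM in basal and 72.3, 117 and 45.6 CPM in luminal libraries (log2 fold change 3.46 ± 0.70, adjusted p = 0.00012), highest in the replicate with the most endothelial RNA. Without that replicate 2 its log2 fold change was 2.36 (adjusted p = 0.015). *Pparg* was at 44.97, 30.2 and 24.4 CPM in basal and 3.75, 6.92 and 2.44 CPM in luminal libraries (log2 fold change 2.71 ± 0.51, adjusted p = 5.4e-05). The leptin gene *Lep* had no read in luminal replicates 2 and 4 and 0.781, 10.9 and 0.162 CPM in basal libraries (adjusted p = 0.0084), which gives no fold because the luminal libraries were under 3 reads, and *Plin1*, a defining marker, had no read in basal replicate 2. Without replicate 4 the adjusted p of *Lep* was 0.50. *Lipe*, a lipase, was at 125, 20.7 and 12.4 CPM in basal and 135, 96.9 and 114 CPM in luminal libraries (log2 fold change -1.79 ± 0.42, adjusted p = 0.00078), close to even in replicate 2. Without replicate 6 its log2 fold change was −1.14 (adjusted p = 0.059), and without replicate 4 its adjusted p was 0.015.

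Of 7 Schwann cell genes in the table, of 8 listed, 1 was called higher and 4 lower, beside 13.9% and 10.5% of all genes, and 3 were called without replicate 4, without replicate 6 or with edgeR. *Sox10*, a neural crest factor that mammary epithelium also uses, was at 20.6, 32.6 and 12.4 CPM in basal and 313, 184 and 293 CPM in luminal libraries (log2 fold change -3.59 ± 0.35, adjusted p = 6e-10). *Erbb3*, a growth factor receptor, was at 54.2, 27.4 and 12.8 CPM in basal and 299.6, 261 and 248 CPM in luminal libraries (log2 fold change -3.28 ± 0.49, adjusted p = 1.2e-06), and *Mbp* was at 13.1, 15.4 and 10.99 CPM in basal and 114, 74.9 and 104 CPM in luminal libraries (log2 fold change -2.79 ± 0.37, adjusted p = 1.6e-07). *Gfra3* had no read in any of the 3 basal libraries.

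The basal against luminal gap of each gene at Id2 was tested against the mean gap of the other 7 time points. It was shifted toward the basal side for 685 genes (4.01% of all) and toward the luminal side for 1083 (6.34%). With edgeR these counts were 345 and 634, and at a false discovery rate of 0.05 with limma they were 1156 and 1540. At Id2 only 1 gene had a gap above 5 on the log2 scale, while each of the other time points had between 88 and 201 such genes. The highest gap at Id2 was 5.01, and the highest at another time point was between 6.98 and 8.25.

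Basal identity and contractile genes were shifted toward the luminal side more often than not. Of 20 basal identity genes, 15 had a gap that was lower at Id2 and 0 had a higher one. Of 23 contractile genes the counts were 14 and 0, of 13 hemidesmosome genes 8 and 0, and of 22 luminal identity genes 2 (*Gata3* and *Cdh1*) and 0, beside 6.34% and 4.01% of all genes. The gap difference was -5.49 for *Trp63* (adjusted p = 2e-07), -3.78 for *Krt5* (0.00037), -3.81 for *Krt14* (2.2e-05) and -4.16 for *Krt17* (9.4e-06). Among contractile genes it was -6.11 for *Oxtr* (1.4e-07), -3.27 for *Acta2* (0.0001) and -3.39 for *Myh11* (0.00012). *Trp63*, *Krt14*, *Krt17* and *Oxtr* thus had no called difference between basal and luminal libraries at Id2, while *Acta2* and *Myh11* kept a smaller one and the call of *Krt5* rested on replicate 4.

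The gap difference of 13 further genes, chosen with the basal and contractile ones as a fixed list, was not called. It was -0.80 for *Krt8*, -0.12 for *Krt18*, 0.17 for *Elf5*, 0.29 for *Csn2*, -0.70 for *Ltf* and -0.10 for *Stat3*. It was 0.92 for *Pecam1*, 0.23 for *Rgs5*, 0.76 for *Col1a1*, 1.31 for *Lpar1* and 1.14 for *Enpp2*. *Pdgfra* (2.23, adjusted p = 0.11) and *Igf1* (2.96, adjusted p = 0.012) had larger differences that missed the threshold. A gap that misses the threshold is not shown to be equal, since the basal libraries of Id2 spread widely.

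**Figure D5:**
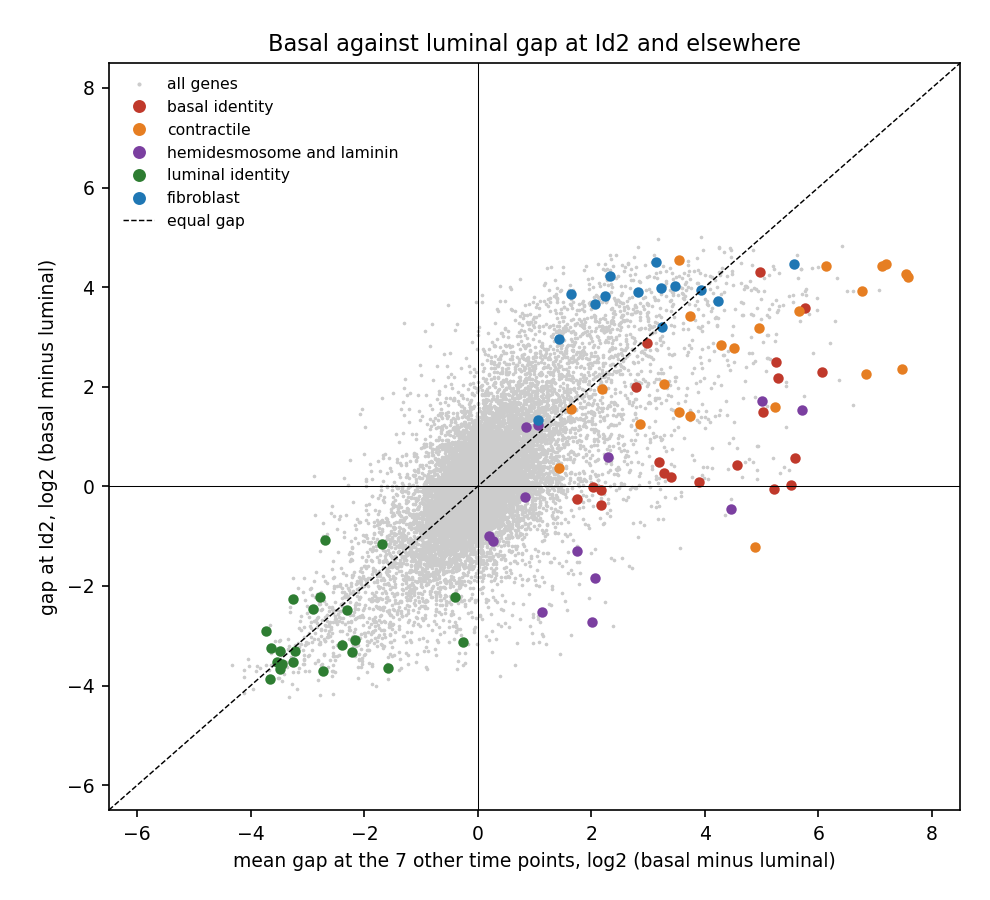
Basal minus luminal difference of each gene at Id2 (vertical axis) against its mean at the 7 other time points (horizontal axis), both on the log2 scale. Grey points are all genes, coloured points are members of 5 lists, and the dashed line marks equal gaps. Basal identity and contractile genes lie mostly under the line, *Oxtr* at -1.22 against 4.89, while luminal identity genes lie on both sides of it, from *Gata3* at -3.13 against -0.26 to *Areg* at -1.08 against -2.70.

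Genes called and at least 2-fold higher in each pair were ranked by their log2 fold change over the 3 pairs. The top 10 were *S1pr3*, *Ebf1*, *Aoc3*, *Avpr1a*, *Map1a*, *Sparcl1*, *Pde3a*, *Adamts1*, *Pi15* and *Olfml2a*, with log2 fold changes of 5.01 to 4.75. *S1pr3*, a receptor for sphingosine 1-phosphate, was at 189, 1073 and 259 CPM in basal and 5.93, 12.2 and 16.3 CPM in luminal libraries (log2 fold change 5.01 ± 0.50, adjusted p = 6.5e-10). *Ebf1*, a transcription factor of stromal and fat precursor cells, was at 654, 538 and 482 CPM in basal and 9.29, 16.1 and 30.9 CPM in luminal libraries (log2 fold change 4.96 ± 0.58, adjusted p = 1.8e-08). *Avpr1a*, the vasopressin receptor of vascular smooth muscle, was at 332, 1843 and 213 CPM in basal and 9.88, 23.4 and 21.2 CPM in luminal libraries (log2 fold change 4.82 ± 0.62, adjusted p = 9e-08). *Ebf1* was nearly even over the 3 basal libraries, while *S1pr3* and *Avpr1a* were highest in replicate 4.

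*Sparcl1*, a matrix protein, was at 1179, 5718 and 488 CPM in basal and 37.7, 87.03 and 44.96 CPM in luminal libraries, and *Pde3a*, which breaks down cyclic nucleotides in smooth muscle, at 69.02, 506 and 73.04 CPM in basal and 2.17, 4.304 and 6.51 CPM in luminal libraries. *Map1a*, a microtubule protein, was at 51.996, 308 and 171 CPM in basal and 0.988, 3.56 and 13.2 CPM in luminal libraries, and *Pi15*, a secreted protease inhibitor, at 37.5, 320.1 and 155 CPM in basal and 1.58, 3.37 and 7.73 CPM in luminal libraries. *Olfml2a* was at 144, 259 and 21.7 CPM in basal and 2.57, 2.81 and 2.24 CPM in luminal libraries. All of these were highest in replicate 4, the basal library with the highest contractile and pericyte sums.

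Among genes called and at least 2-fold lower in each pair, the same ranking put 10 genes first on the luminal side. They were *Klk10*, *Esyt3*, *Atp2c2*, *Muc4*, *Slc28a3*, *Atp13a4*, *Il17re*, *Ltf*, *Gdpd2* and *Slc34a2*, with log2 fold changes of -4.24 to -3.92. *Klk10*, a secreted protease of the kallikrein family, was at 2.19, 6.299 and 1.13 CPM in basal and 66.2, 68.3 and 70.6 CPM in luminal libraries (log2 fold change -4.24 ± 0.68, adjusted p = 4.5e-06). *Atp2c2*, the pump that loads calcium into the secretory pathway, was at 16.1, 25.5 and 12.9 CPM in basal and 371, 300.4 and 333 CPM in luminal libraries (log2 fold change -4.18 ± 0.55, adjusted p = 1.6e-07). *Muc4*, a membrane mucin, was at 59.3, 89.7 and 37.5 CPM in basal and 884, 617 and 2137 CPM in luminal libraries (log2 fold change -4.15 ± 0.80, adjusted p = 7.3e-05). The luminal values lay close together for *Klk10* and *Atp2c2* and differed more for *Muc4*.

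*Slc28a3*, a nucleoside transporter, was at 139, 201 and 68.03 CPM in basal and 1625, 2377 and 2432 CPM in luminal libraries, and *Slc34a2*, a phosphate transporter, at 35.6, 46.998 and 5.49 CPM in basal and 371, 414 and 255 CPM in luminal libraries. *Il17re*, an interleukin 17 receptor chain, was at 1.25, 4.26 and 2.26 CPM in basal and 64.6, 44.7 and 52.1 CPM in luminal libraries, and *Esyt3*, a tether of membrane contact sites, at 18.9, 23.6 and 6.95 CPM in basal and 250.4, 353 and 269 CPM in luminal libraries. *Atp13a4* was at 5.31, 5.33 and 1.94 CPM in basal and 96.8, 104 and 53.3 CPM in luminal libraries and *Gdpd2* at 5.62, 5.72 and 1.45 CPM in basal and 107, 67.2 and 54.7 CPM in luminal libraries. For each of these genes the lowest luminal library was above the highest basal library, and basal replicate 6 was the lowest of the 6 libraries for all of these but *Il17re*.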

How the data were processed

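RNA of sorted cells (5 ng) was amplified and sequenced by the authors, who used GSNAP for alignment to mm9, htseq-count for counts per Ensembl gene and edgeR for normalization. Whether the counting used strand is not given in the sources used here. The deposited values are a signal in CPM, each gene's reads scaled by the authors to the effective size of its library. They had dropped genes that failed 1 CPM in 3 samples, and very abundant genes that hardly varied. All values were whole multiples of 1 read (100%, within 0.01 of a read), so reads were recovered. Of 17078 genes, 16897 had a symbol in the annotation of a later build. Every column of samples was used (0 left out). One basal library of late pregnancy was not analysed here.

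log2(CPM + 1) was fitted with limma 3.58.1 in R 4.3.3, with a mean for each of 16 conditions, a mean-variance trend and the sort as a block (consensus correlation 0.179). Fold changes of genes with few reads are too small on this scale. A call needed a 2-fold difference and a Benjamini-Hochberg adjusted p under 0.01 over all genes, and log2 fold changes are given ± SE. The gap at Id2 was tested against the mean of the 7 other gaps in the same model. Replicate numbers pair the libraries because the labels give both cell types of a number the same sort. Across genes, deviations from the condition means correlated within the Id2 sorts at 0.26, 0.023 and 0.38 (replicates 2, 4 and 6). Replicates are separate sorts of pooled mice. Alternatives were no block, Id2 libraries alone, a pseudocount of 0.1, median-ratio rescaling, a filter on the mean, edgeR 4.0.16 on the recovered reads, a false discovery rate of 0.05 and leaving out each sort.

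Members and gene lists were chosen with earlier results of these data known. Named are 20 genes of a fixed list and up to 3 called members per list and direction with the largest change. Also named are the 10 largest log2 fold changes each way among genes called and at least 2-fold apart in all pairs. A gene named otherwise (*Myocd*, *Srf*, *Myl9*, *Vcl*, *Pgr*, *Prlr*, *Saa1*, *Saa2*, *Lrg1*, *Col1a2*, *Col3a1*, *Atp6v1e1*, *Atp6v0b*, *Mmp2*, *Mmp3*, *Timp1*, *Glycam1*, *Gata3*, *Cdh1*, *Areg*, *Il33*, *Notch3*, *Cxcl5*, *Ccl8*, *Cx3cl1* and genes at 0) was chosen after its values were seen. Some genes that this rule takes are not reported here. Exon overlaps came from the GENCODE annotation and promoters from RefSeq (GRCm38.p6), and no coordinates were carried between builds.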

Additional observations from a re-analysis of the deposited data

Results flagged for a closer look

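The basal against luminal gap of 1768 genes at Id2 differed from that of the other time points by the test of the difference itself. In each of the following the difference, as Id2 minus the other 7 time points on the log2 scale, passed with limma. It was -5.49 for *Trp63*, -3.78 for *Krt5*, -3.81 for *Krt14* and -4.16 for *Krt17*. For contractile genes it was -3.27 for *Acta2*, -3.39 for *Myh11* and -6.11 for *Oxtr*. Groups had at most 3 libraries at Id2, too few to test a single library as an outlier.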

How the results depend on the processing

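Without the replicate block, 3690 genes differed at Id2 (4169 with it), 2429 did so at least 2-fold in each pair (2513) and 1319 had a different gap (1768). Of 115 named genes, 7 lost their call without this pairing: *Krt5*, *Pecam1*, *Lama3*, *Rrm2*, *Mcm6*, *Cd68* and *Lep*. In the Id2 libraries alone with the block, 0 genes passed in either of the first 2 comparisons, with 2 residual degrees of freedom. Leaving out one sort gave 3495 to 3702, 2763 to 3088 and 1312 to 1636 genes. Of the named genes, 10 lost their call without replicate 2, 18 without replicate 4 and 15 without replicate 6. Over these 3 fits the log2 fold change ran from −1.49 to 1.06 for *Trp63*, −1.10 to 0.78 for *Krt14* and −0.71 to 1.46 for *Krt17*, on the luminal side without replicate 4 and not called. *Krt14* was −0.023 with a pseudocount of 0.1 and *Trp63* was −0.17 with edgeR. The number of genes with a different gap was 979 with edgeR, 2696 at a false discovery rate of 0.05 and 1704 against the virgin mice of 10 weeks alone, which share the amplification batch of Id2, an alternative chosen after seeing the data. The cause of these changes was not tested, apart from the threshold itself. Other planned settings kept the 3 counts within 1.5 times. Depth limits genes of a few reads, such as *Lpar2*, *C1qa* and *Lep*.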

Other observations

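A set of 52 genes was lower in basal than in luminal libraries at Id2 while its mean gap at the other time points was at least 2-fold toward the basal side, with a called gap difference. The genes named from it here were chosen after their values were seen. *Fermt1*, which helps integrins grip the matrix, was at 4.22, 17.7 and 2.26 CPM in basal and 37.3, 146 and 60.4 CPM in luminal libraries, a log2 fold change of -3.36 against a mean gap of 1.46 at the other time points. *Tfap2c*, a transcription factor of mammary epithelium, was at 2.65, 6.49 and 1.78 CPM in basal and 23.7, 16.7 and 20.5 CPM in luminal libraries (-2.32 against 2.24). *Col4a6*, a basement membrane collagen chain, was at 1.56, 13.1 and 2.42 CPM in basal and 11.9, 23.2 and 9.97 CPM in luminal libraries (-1.60 against 2.66), and *Dsp*, a desmosome protein, was at 23.7, 86.1 and 8.73 CPM in basal and 132, 94.5 and 95.2 CPM in luminal libraries (-1.96 against 1.79). *Lamb3* belongs to this set. These genes were lower in each basal library than in its luminal partner.

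Only 8 genes went the other way. The interferon-induced *Ifi202b* was at 50.1, 15.8 and 148 CPM in basal and 6.72, 1.12 and 7.53 CPM in luminal libraries (3.28 against -1.30), and *Iigp1*, an interferon-induced GTPase, at 544, 64.1 and 116 CPM in basal and 25.7, 40.4 and 42.3 CPM in luminal libraries (2.15 against -1.28). *Col8a1*, a collagen of vessel walls, was at 145, 453 and 1853 CPM in basal and 121, 46.4 and 131 CPM in luminal libraries (2.44 against -1.02). *Ifi202b* and *Col8a1* were highest in the basal library with the most fibroblast RNA and *Iigp1* in the one with the most endothelial RNA. The part of that RNA in these values was not tested.

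Apart from *Cxcl14*, the following genes were also chosen after their values were seen. Of 10 pericyte genes, *Notch3* was the one with a called gap difference (3.11, adjusted p = 8.9e-06, limma). Its direction, higher at Id2, was called for 4.01% of all genes. *Notch3* was at 244, 2145 and 235 CPM in basal and 54.5, 61.6 and 54.3 CPM in luminal libraries. Of 15 cytokine genes, 3 had a gap called higher at Id2 (*Cxcl5*, *Ccl8* and *Il33*) and 2 a lower one (*Cxcl14* and *Cx3cl1*). Among all genes the shares were 4.01% higher and 6.34% lower. *Il33*, an alarm signal released by damaged cells, had a gap difference of 3.76 (adjusted p = 0.00062) and was at 40.1, 20.2 and 89.5 CPM in basal and 0.988, 0.374 and 8.95 CPM in luminal libraries.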
